A study of Mus musculus with 89 samples.

Results

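The genes described here are 10 chromatin factors that write or read methylation of lysine 36 of histone H3, or that work beside it: Setd2, Nsd1, Ash1l, Zmynd11, Zmynd8, Morf4l2, Dnmt3a, Psip1, Ehmt2 and Smarca4. They were chosen by name, with earlier results of these data known. Every exon skipping event listed for them was taken, 51 of 27900 in the table of the HSV experiment and 13 of 5608 in the table of the dCas9-SET2 experiment. The 10 genes stand among 9783 genes of both tables. All 10 are in the HSV table, and Setd2, Nsd1, Zmynd11, Zmynd8, Morf4l2, Ehmt2 and Smarca4 are also in the dCas9-SET2 table, where Ash1l, Dnmt3a and Psip1 have no event. An exon skipping event is an exon with both its neighbours, for which reads that include the exon and reads that skip it were counted.

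Methylation of H3K36 is laid down over the bodies of transcribed genes. Setd2 travels with elongating RNA polymerase and is the main enzyme of the trimethylated form, H3K36me3, while Nsd1 and Ash1l place lower methylation states. Readers carry domains that bind the methylated lysine and bring other machinery to it: elongation control (Zmynd11), transcriptional corepression (Zmynd8), DNA methylation (Dnmt3a) and splicing factors (Psip1). Because the mark is denser over exons than introns, these factors are studied as a link between chromatin and exon choice.

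The study asked how H3K36me3 relates to alternative splicing in the nucleus accumbens, a brain region of reward, of wild type C57BL/6 mice aged 8 weeks. The RNA libraries come from tissue given a herpes simplex virus (HSV) vector, HSV-GFP, HSV-Set2 or HSV-R195G with 3 libraries each, or from tissue given dCas9-SET2, an inactive Cas9 fused to SET2, with sgRNA-SRSF11 or sgRNA-NT, 16 runs each under 4 sample names of 4 runs. Of 89 samples, 48 ChIP, input and CUT&RUN libraries were not analysed here. Tissue punches mix cells that did and did not take up a vector, and the labels do not say whether animals were pooled.

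The columns of both tables carry no sample names. The HSV table holds 2 libraries in a first set, called set A here (libraries A1 and A2), and 3 libraries in a second, set B (B1, B2 and B3), and no virus was assigned to either. The dCas9-SET2 table holds 16 run positions in each set, and no guide was assigned to either. HSV differences are given as set B minus set A, and dCas9-SET2 differences as the second set minus the first. Nothing says that the libraries are from separate animals, so p-values reflect only spread between libraries or runs, which may be technical. The HSV inclusion test shares a single spread over all events, so its p-values do not measure the spread of an exon's own libraries. Reads over all listed events numbered 7428974 to 8638249 per HSV library but only 56946 to 106251 per dCas9-SET2 run. Positions 4 and 8 of the dCas9-SET2 table held identical counts at every event in both sets, so 15 distinct runs remained per set. The dPSI deposited by the authors was rebuilt in 91.3% of events with all 16 positions and in 24.2% with 15, so the repeated run stands in the authors' values. The rebuilding took the difference between runs of the same position, with a run without reads counted as full skipping. It averaged the differences within a standard deviation of their mean. The authors' dPSI can therefore depart from the difference of the summed PSI values printed beside it. Every dPSI, FDR and adjusted p called the authors' is from the authors' deposited table of that experiment.

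The HSV sets also differed in the markers of cell types. Of the medium spiny neuron markers, the main neurons of this region, 11 of 14 had lower coverage in set B and 1 higher, and their summed coverage was 14006 and 11430 CPM (counts scaled to a common library size) in set A against 5501, 5536 and 5392. Of 13 interferon response genes all 13 were higher, with sums of 87.9 and 201.3 against 3551, 3140 and 3484 CPM. Higher coverage was also called for 6 of 8 oligodendrocyte, 4 of 8 microglia and 2 of 5 astrocyte markers, with none called lower. Within set A, microglia markers summed to 1181 CPM in A1 and 2560 in A2. The part of these differences in the results on the 10 genes was not tested.

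Most exons of the 10 genes were constitutive. Across both HSV sets, 38 of the 51 events had a mean inclusion level (PSI, the share of transcripts in which the exon is kept) above 0.9, and 7 were below 0.1. Of the 51, 38 did not pass the filter of 20 reads per library on average and at least 10 for the less used form, nearly always because one form was almost unread: the 35 mostly included ones summed to 60978 inclusion and 105 skipping reads. The 13 events that passed, in Setd2, Zmynd11, Zmynd8, Morf4l2, Psip1, Ehmt2 and Smarca4, were tested with limma on the logit of inclusion. A single one was called at an adjusted p below 0.05, an exon of Smarca4, against 3.69% of all 7754 tested events. At an unadjusted p below 0.05 stood 3 of 13, against 12.9% of all. The authors' deposited FDR below 0.05 marked the same single event, against 12.6% of the events tested here and 4.87% of all listed events. Inclusion was higher in set B in 6 events and lower in 7, with a median difference of -0.0018 against -0.0015 over all tested events. The sets did not overlap in 3 of the 13 events, against 27.6% of all. A length that is a multiple of 3, which would leave a reading frame intact, was found in 8 of the 13 exons, 61.5% against 52.8% of all tested events.

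**Figure D1:**
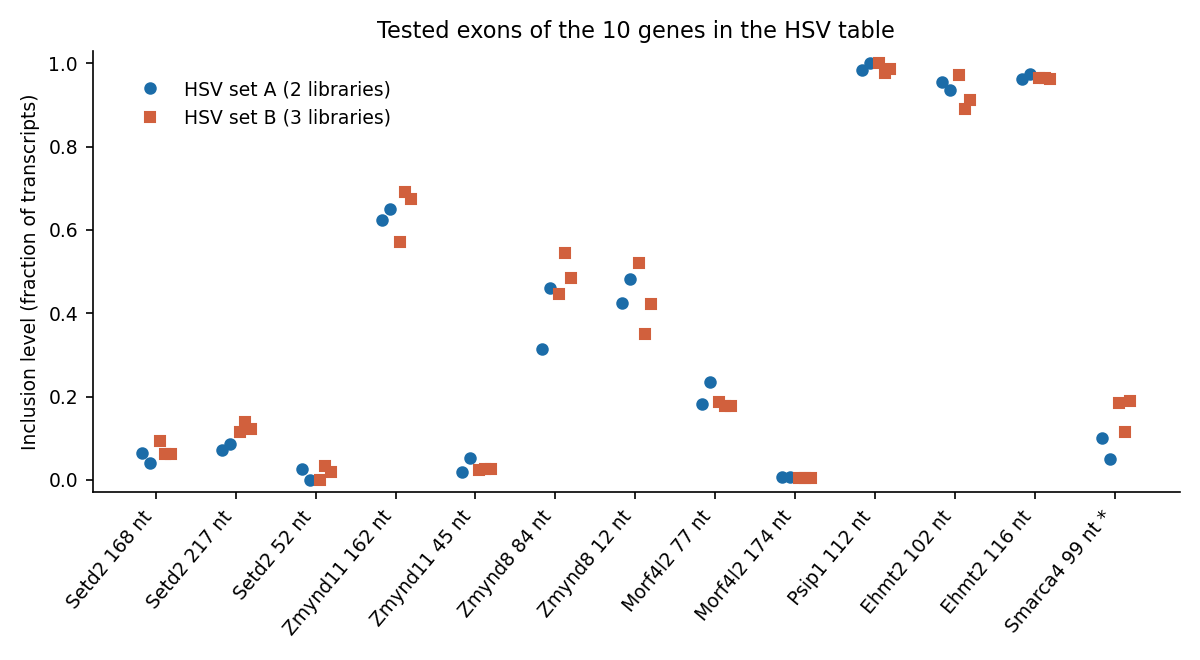
Inclusion level (fraction of transcripts, vertical axis) of the 13 tested exons of the 10 genes, one point per library. Circles are the 2 libraries of set A and squares the 3 of set B. The asterisk marks the 99-nt exon of Smarca4, the single call, at 0.101 and 0.049 against 0.184, 0.115 and 0.19. The exons of Zmynd11 (162 nt), Zmynd8 (84 and 12 nt) and Morf4l2 (77 nt) are used at intermediate levels, and their sets overlap.

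Setd2 (GRCm38 chromosome 9, 110532500 to 110618633) had 6 events, 3 of them tested. Its variable exon starts at position 110479626 of chromosome 9 as the HSV table gives it and comes in 2 lengths, 168 and 217 nt, which share the same skipping reads. The 217-nt form had PSI 0.071 and 0.085 in set A against 0.115, 0.138 and 0.123 in set B. All 3 libraries of set B were above both of set A, but the logit difference of 0.49 (SE 0.38) did not pass the test (adjusted p = 0.598, limma). It rests on 9 and 15 inclusion reads against 19, 22 and 22. The 168-nt form was at 0.064 and 0.041 against 0.093, 0.063 and 0.062, with overlapping sets (adjusted p = 0.808). The 52-nt exon, with 0 to 4 inclusion reads per library, was skipped nearly throughout. The other 3 exons, including one of 663 nt, had 3152 inclusion and 6 skipping reads in all. With dCas9-SET2 the 217-nt form had PSI 0.054 in the first set and 0.055 in the second, from 103 and 90 reads, and the 168-nt form 0.029 and 0.010. The authors' adjusted p was 0.804 and 0.951. This exon, at the same flanks in both tables, was thus mostly skipped in every set.

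Nsd1 (chromosome 13, 55209782 to 55318325) is a dimethyltransferase of H3K36. Its single HSV event, a 206-nt exon, had 770 inclusion and 3 skipping reads over the 5 libraries and did not pass the filter. The dCas9-SET2 table lists another of its exons, of 154 nt, at PSI 0.034 and 0.045 from 85 and 56 reads (authors' dPSI 0.0151, adjusted p = 0.769). That exon was nearly always skipped in both sets.

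Ash1l (chromosome 3, 88950414 to 89079375), a methyltransferase of H3K36 that counters Polycomb silencing, had 9 events over 7 exons, none tested. They summed to 18064 inclusion and 28 skipping reads, and the lowest level in any library was 0.898. Its exon of 4558 nt alone carried 1568 to 2138 inclusion reads per library and 1 skipping read in all. Skipping was thus rare in every Ash1l exon listed.

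Zmynd11 (chromosome 13, 9684836 to 9766014) reads H3K36me3 on the histone variant H3.3 and restrains elongation. In the HSV table its 162-nt exon had PSI 0.624 and 0.649 against 0.572, 0.691 and 0.673 from 435 to 758 reads per library. The sets overlap, and the logit difference was 0.00 (SE 0.13, adjusted p = 0.996, limma). A 45-nt exon was mostly skipped, at 0.019 and 0.052 against 0.023, 0.025 and 0.025 (adjusted p = 0.701). The dCas9-SET2 table gave the 162-nt exon 0.384 in the first set and 0.336 in the second, from 566 and 343 reads, and the authors called it (dPSI -0.0992, adjusted p = 0.0492). The value per run, over runs with at least 5 reads, went from 0.230 over a median of 0.396 to 0.655 in the first set, and from 0.170 over 0.357 to 0.455 in the second. The runs of the sets overlap. Of the first set, 7 of the 15 runs lie above the highest of the second. Of the second set, 2 lie below the lowest of the first. Runs of a set are not independent replicates, so such counts only describe them.

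Zmynd8 (chromosome 2, 165784152 to 165898981) is a corepressor subunit that reads acetylated and methylated histones. It was the gene with 2 tested exons at intermediate inclusion. Its 84-nt exon, at 165612664 of chromosome 2 in the HSV table, had PSI 0.315 and 0.461 against 0.445, 0.544 and 0.484. Library A1 is low and A2 lies within the range of set B. The logit difference was 0.44 (SE 0.19) with an unadjusted p of 0.0208 and an adjusted p of 0.259 (limma). Its 12-nt microexon, of a length that would keep the frame, was at 0.424 and 0.481 against 0.521, 0.349 and 0.423 (adjusted p = 0.935). With dCas9-SET2 the same microexon was at 0.390 against 0.501 from 256 and 189 reads, the largest dPSI among the 10 genes (0.134, authors' adjusted p = 0.0245). Its runs ranged from 0 over a median of 0.373 to 0.609 in the first set and from 0.182 over 0.494 to 1 in the second. Of the first set, 1 run lay below the lowest of the second, and 3 of the second lay above the highest of the first. The 84-nt exon was at 0.535 and 0.546 there (adjusted p = 0.760), and a 71-nt exon with 39 and 37 reads at 0.079 and 0.032 (adjusted p = 1.00).

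Morf4l2 (X chromosome, 136732942 to 136743686) belongs to the family of the chromodomain reader Morf4l1. Its 77-nt exon would shift the frame if coding. The HSV libraries gave it PSI 0.183 and 0.234 against 0.187, 0.178 and 0.178 from 1140 to 1223 reads each. Library A2 is the one that stands higher, and the logit difference of -0.18 (SE 0.09) had an unadjusted p of 0.0366 and an adjusted p of 0.341 (limma). The dCas9-SET2 sets stood at 0.270 and 0.221 from 791 and 662 reads, called by the authors (dPSI -0.0512, adjusted p = 0.0245). Runs went from 0.104 over a median of 0.291 to 0.420 in the first set and from 0.094 over 0.198 to 0.551 in the second. Of the second set, 1 run lay below the lowest of the first and 1 above its highest. A 174-nt exon was included at 0.004 to 0.007 in the HSV libraries and at 0.031 and 0.029 in the dCas9-SET2 sets.

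Dnmt3a (chromosome 12, 3801559 to 3914443), the de novo DNA methyltransferase that binds H3K36 methylation through its PWWP domain, had 3 exons with 966 inclusion and 5 skipping reads, none tested. Psip1 (chromosome 4, 83455680 to 83486463) codes for LEDGF, a PWWP protein that tethers splicing factors to H3K36me3. Its tested 112-nt exon was at 0.983 and 1 against 1, 0.976 and 0.985 (adjusted p = 0.911, limma), and 10 skipping reads in all carried that test. The other 3 Psip1 exons had 12354 inclusion and 12 skipping reads. Skipping was thus rare in the listed exons of both genes. Exon skipping events do not show other differences between transcripts, such as their starts or ends.

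Ehmt2 (chromosome 17, 34898463 to 34914073) codes for G9a, which methylates H3K9 rather than H3K36. Its 102-nt exon had PSI 0.956 and 0.936 against 0.971, 0.89 and 0.912 in the HSV table, and the sets overlap (logit difference -0.46, SE 0.28, adjusted p = 0.475, limma, and -0.19 without B2). Its dCas9-SET2 level was 0.796 in the first set, from 499 inclusion and 63 skipping reads, and 0.884 in the second, from 373 and 24. The authors called it higher in the second set (dPSI 0.0969, adjusted p = 0.0348). Runs went from 0.615 over a median of 0.770 to 0.932 in the first set and from 0.672 over 0.903 to 1 in the second. Of the first set, 2 runs lay below the lowest of the second, and 4 of the second lay above the highest of the first. The 116-nt exon stayed between 0.963 and 0.975 in all 5 HSV libraries (adjusted p = 0.912) and was at 0.964 and 0.983 in the dCas9-SET2 sets (authors' adjusted p = 0.652).

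Smarca4 (chromosome 9, 21616106 to 21704230) codes for BRG1, an ATPase of the SWI/SNF remodelling complex. Its 99-nt exon, at 21482397 to 21482495 of chromosome 9 in the HSV table, rose in set B. Inclusion reads were 63 and 24 against 81, 42 and 68, beside 339 and 278 skipping reads against 175 to 216. PSI was 0.101 and 0.049 in set A against 0.184, 0.115 and 0.19, so the sets do not overlap, though the library B2 came close to A1. The difference of the means was 0.088, and the logit difference was 0.80 (SE 0.20, adjusted p = 0.00452, limma). It was 1.33 without A1 and 0.58 without A2. The authors' deposited FDR was 6.3e-05. The call was lost without A2 (adjusted p = 0.200) and without B1 (0.0576), with no filter (0.106), without weights (0.541) and with the exon's own spread (0.657). In the dCas9-SET2 table the exon was at 0.082 and 0.084 from 231 and 155 reads (dPSI 0.0101, authors' adjusted p = 0.813), close to set A of the HSV table.

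Of the 13 events in the dCas9-SET2 table, the authors called 4, 2 higher and 2 lower in the second set, against 4.96% of all events with an adjusted p and 4.36% of those with at least 20 reads in each set. The genes were chosen with earlier results of these data known, so the count of 4 is no test of these genes against all events. The 13 events are deeper than most, with a median of 231 and 171 reads per set against 82 and 60 over all events. The runs of a set are not independent replicates. In each set they fell into 4 groups of neighbouring positions by the correlation of their coverage, a description made after the data were seen: runs of a group had a median r of 0.20 and 0.38 in the 2 sets over 988 and 704 events, runs of different groups -0.17 and -0.16. All 15 runs of each set were closest to their own group. When reads were summed within these groups, the 4 values of each set overlapped in all 13 events. The share of all events that overlap in this way was not computed, so the count describes these events only.

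The summed groups show how the 4 called exons vary. For the 102-nt exon of Ehmt2 they were 0.898, 0.729, 0.746 and 0.768 in the first set and 0.847, 0.878, 0.914 and 0.908 in the second. A single group of the first set, the first, is inside the range of the second set. For the Zmynd8 microexon they were 0.362, 0.387, 0.505 and 0.328 against 0.435, 0.443, 0.690 and 0.503. The 77-nt exon of Morf4l2 stood at 0.207, 0.257, 0.320 and 0.312 against 0.153, 0.212, 0.280 and 0.239, and the 162-nt exon of Zmynd11 at 0.375, 0.406, 0.329 and 0.470 against 0.365, 0.405, 0.235 and 0.334. With limma over the summed groups, an alternative added after the data were seen, 0 of the 10 member events that could be tested were called, against 0.0435% of all, and 1 of the 10 had an unadjusted p below 0.05, against 5.70%. The adjusted p was 0.808 for Ehmt2 (logit difference 0.68, SE 0.30), 0.907 for the Zmynd8 microexon, and 0.922 for Morf4l2 and for Zmynd11. Set beside the group of the same position number, the second set was higher in 4 of 4 groups for the Zmynd8 microexon and in 3 of 4 for Ehmt2, and lower in 4 of 4 for Morf4l2 and Zmynd11, though the position numbers carry no sample name. Without the repeated run, the rebuilt difference was 0.111 for Ehmt2, 0.134 for Zmynd8, -0.0511 for Morf4l2 and -0.103 for Zmynd11.

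**Figure D2:**
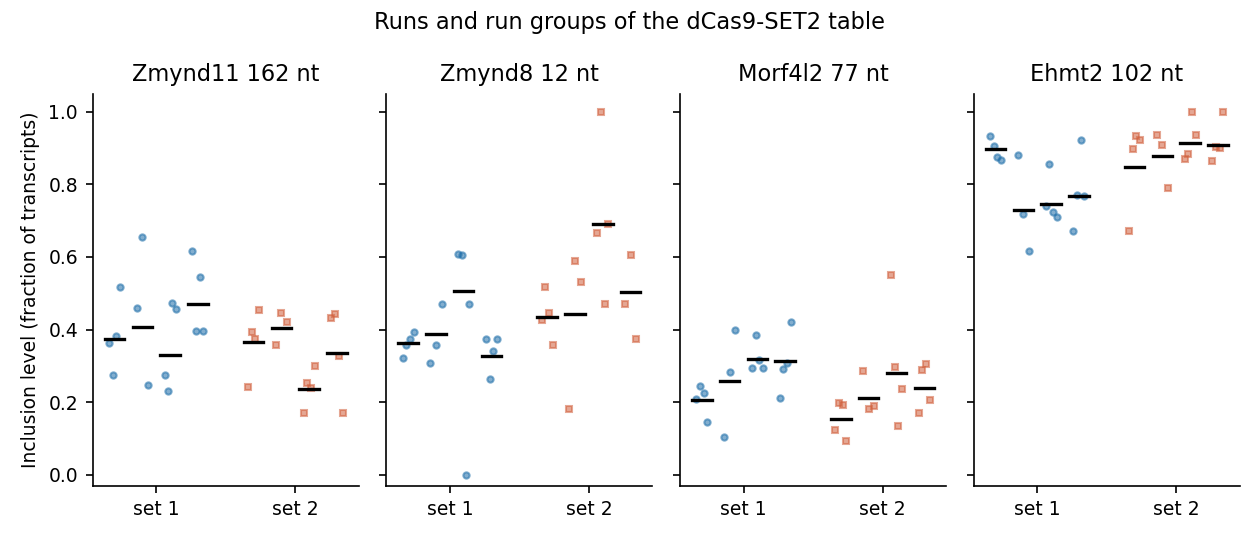
Inclusion level (fraction of transcripts, vertical axis) of the 4 exons called by the authors in the dCas9-SET2 table. Small points are runs with at least 5 reads, in 4 groups of positions per set (circles first set, squares second set), and the black bar is the inclusion of the summed reads of a group. The bars of the sets overlap in every panel, as for Ehmt2, where a bar of the first set at 0.898 lies among those of the second.

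Exons could be matched between the tables by gene and length for 12 of the 13 dCas9-SET2 events, 10 with both neighbouring exons of the same length and 2, both of Zmynd8, with 1. The exons of Setd2 and Smarca4 and the 174-nt exon of Morf4l2 were mostly skipped in every set of both tables. Their highest values were in set B of the HSV table, 0.163 for Smarca4 and 0.125 for the 217-nt form of Setd2, except for Morf4l2, which stayed at 0.031 or below. The 162-nt exon of Zmynd11 differed most: mean PSI was 0.636 and 0.645 in the HSV sets but 0.384 and 0.336 in the dCas9-SET2 sets. The 102-nt exon of Ehmt2 was at 0.946 and 0.924 against 0.796 and 0.884, and the 84-nt exon of Zmynd8 at 0.388 and 0.491 against 0.535 and 0.546. The tables count reads with different form lengths, exon plus 150 against exon plus 99, and were made separately, so no test was made between them. None of the 5 exons called in one table was called in the other. Over all events, limma called 3.69% in the HSV table and the authors 4.96% in the dCas9-SET2 table. With shares so low, this does not show that the tables disagree.

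**Figure D3:**
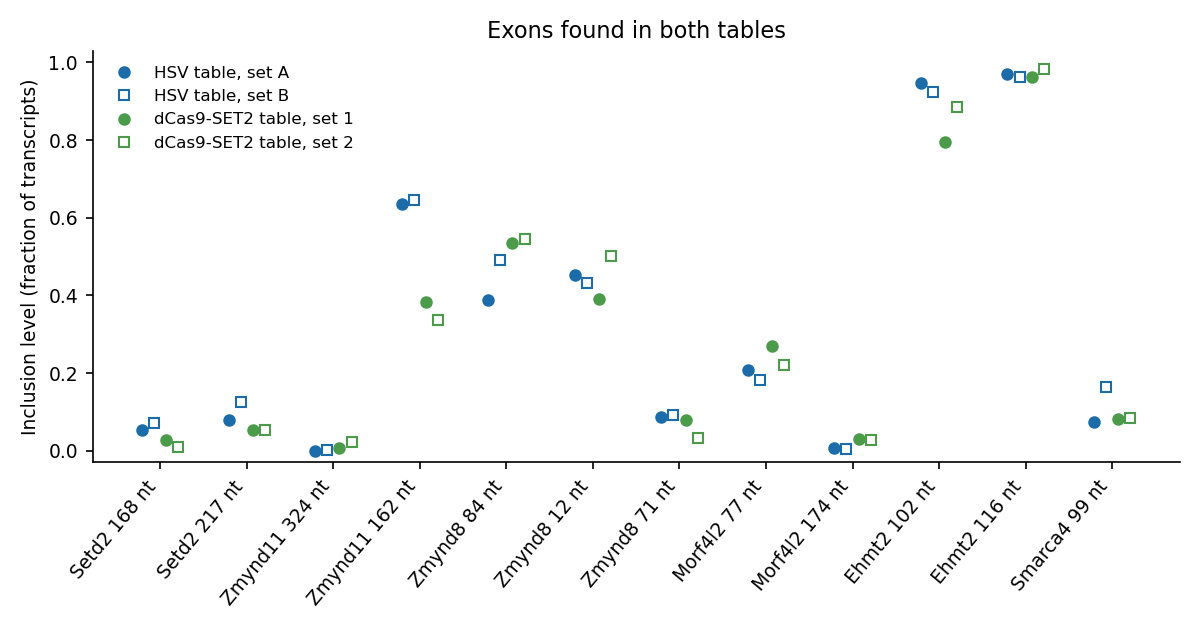
Inclusion level (fraction of transcripts, vertical axis) of the 12 exons found in both tables. Blue marks are means over the libraries of the HSV sets and green marks summed reads of the dCas9-SET2 sets, filled for the first and open for the second set of a table. The 162-nt exon of Zmynd11 stands near 0.64 in the HSV table and at 0.384 and 0.336 in the other.

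Coverage, the reads over the deepest event of a gene, is a partial stand-in for its expression. It was called lower in set B for Zmynd11 and Smarca4 and higher for none of the 10 genes, against 22.7% of 8201 genes called, 9.49% lower and 13.2% higher. The log2 difference was below 0 in 8 of the 10, with a median of -0.19 against 0.00 over all genes. In bulk tissue, fewer cells of a type and less RNA per cell cannot be told apart. The lower coverage of medium spiny neuron markers and the higher interferon and glial markers given above move with the same sets.

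Zmynd11 fell by 0.51 on the log2 scale (SE 0.11, adjusted p = 0.00504, limma). Its coverage was 186.6 and 162.1 CPM in set A and 126.1, 117.1 and 124.4 in set B, with no overlap. It was called in every alternative, with adjusted p up to 0.0338. All 9 of its events had fewer scaled reads in set B, 8 of them without overlap, by -0.57 to -0.41 on the log2 scale. These events share exons and are not independent. They include the skipping reads of its 324-nt exon, 276 and 238 against 171, 153 and 177. Among dCas9-SET2 runs the 162-nt event held 407.5 CPM of all listed reads in the first set and 333.6 in the second, and its runs overlapped, at 222.9 to 564.7 and 146.7 to 589.0.

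Smarca4 had coverage of 164.9 and 149.3 CPM against 126.4, 129.5 and 120.8, also with no overlap. The log2 difference was -0.32 (SE 0.11, adjusted p = 0.0484, limma), just inside the threshold. The call was lost without A1 (0.225), B1 (0.0959), B2 (0.0768) or B3 (0.118). It was also lost with scaling by library totals (0.0684), per form length (0.0531) and with no filter (0.0524).

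Psip1, the second most covered per length by the deepest event, was at 434.2 and 406.2 CPM against 336.7, 356.1 and 369.1, with no overlap. Its difference of -0.25 (SE 0.09) was just outside the threshold (adjusted p = 0.0571, limma), and it was called with reads summed over exons (0.0208), per form length (0.0394) and without A2 (0.0260). Ehmt2 had 186.1 and 172.7 CPM against 155.6, 156.1 and 143.6 (log2 difference -0.24, adjusted p = 0.116), with no overlap. Dnmt3a, with few reads, had 26.3 and 29.8 CPM against 22.9, 20.5 and 22.5 (-0.35, SE 0.21, adjusted p = 0.275). The sets of these genes are apart, but the limma test passed none of them. Such separation is common: over all listed events, scaled reads were lower without overlap in 21.7% and higher without overlap in 23.4%.

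The H3K36 methyltransferases among the 10 were not called in coverage. Setd2 was at 79.8 and 78.8 CPM against 74.0, 78.3 and 68.8, with no overlap by a narrow margin (log2 difference -0.11, SE 0.13, adjusted p = 0.604, limma). Nsd1 was at 44.3 and 38.7 CPM against 40.4, 43.1 and 30.1 (-0.14, SE 0.20, adjusted p = 0.650). Ash1l was at 459.8 and 464.8 CPM against 520.5, 422.1 and 517.4 (0.07, SE 0.10, adjusted p = 0.678), and its sign turned to -0.06 when reads were summed over exons. Zmynd8 was at 77.3 and 73.7 CPM against 69.9, 74.8 and 64.9 (-0.11, SE 0.13, adjusted p = 0.596). Morf4l2 was at 283.6 and 301.3 CPM against 296.8, 318.2 and 312.4 (0.08, SE 0.09, adjusted p = 0.563). The SEs of 0.09 to 0.20 limit how small a difference the 5 libraries could show in these genes, which are thus not shown to be unchanged.

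**Figure D4:**
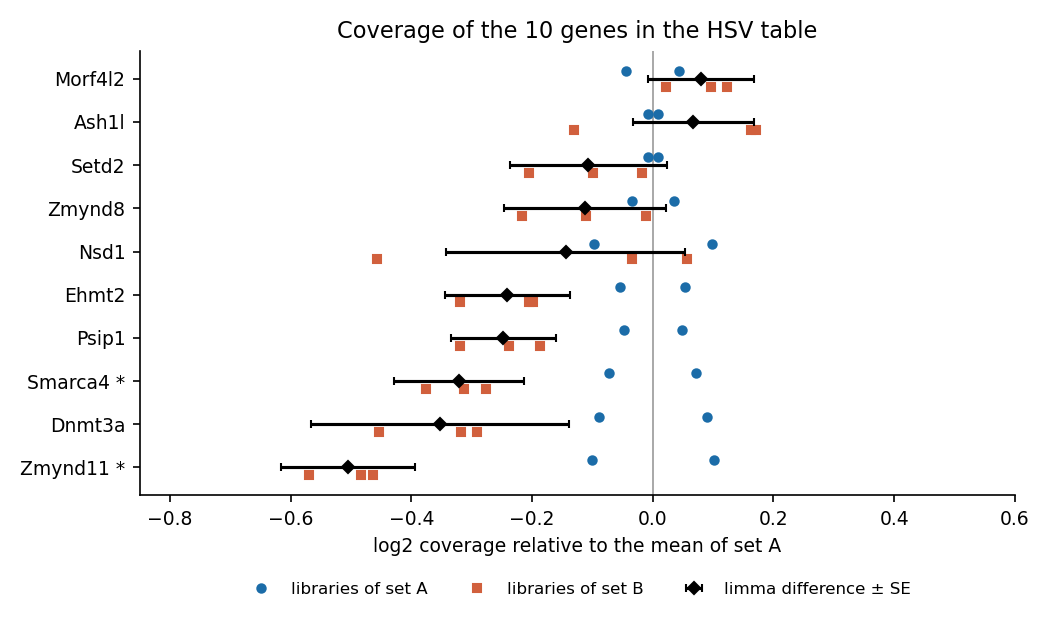
Coverage of the 10 genes in the HSV table, as log2 relative to the mean of set A (horizontal axis). Circles are libraries of set A, squares those of set B, and diamonds with bars the limma difference with its SE. Asterisks mark Zmynd11 and Smarca4, the genes with an adjusted p below 0.05, and 8 of the 10 diamonds lie below 0.

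Per kilobase of event, the order of mean coverage in CPM was Morf4l2 (1836), Psip1 (1492), Ehmt2 (621), Zmynd11 (565), Smarca4 (342), Zmynd8 (196), Nsd1 (111), Ash1l (102), Dnmt3a (95.0) and Setd2 (93.7). The last 4 do not differ beyond their spread over libraries: Setd2 ranged from 84.6 to 99.4, Dnmt3a from 81.6 to 115.5, Ash1l from 89.7 to 110.6 and Nsd1 from 84.7 to 124.5. Psip1 (1321 to 1703) stayed below Morf4l2 (1728 to 1944) in every library. The ranges of Ehmt2 (548.6 to 711.0) and Zmynd11 (447.1 to 742.9) overlap. On these deepest events the 3 methyltransferases of H3K36 stand among the 4 genes with the lowest values, but the order depends on the event taken. The event of Ash1l is its 4558-nt exon, with 1869.8 reads per library over a form length of 4708. Its 167-nt exon had 295.6 over 317, more per length. The event of Setd2 is also a long exon, of 663 nt. Among 3164 genes with coverage within a factor of 2 of that of Setd2, the 3 whose centred log2 coverage over the 5 libraries lay closest to it were Zmynd8 (root mean square distance 0.018), Scnm1 (0.028) and Eif2b2 (0.030).

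The 10 genes were set beside 90 others of the same complexes and pathways, of which 69 were in the HSV table. Of 102 tested events of these others, limma called 2, 1 higher and 1 lower, against 3.69% of all, and the authors' FDR marked 18, against 12.6%. Of 65 with coverage, 1 was higher, against 13.2% of all, and 8 lower, against 9.49%, with a median log2 difference of -0.16. In the dCas9-SET2 table, 2 of their 58 events with an adjusted p were called, against 4.96%.

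By role, counting the 10 genes where they belong, the 8 H3K36 methyltransferases with coverage held 1 call, against 22.7% of all genes. It was Smyd2, which rose from 46.3 and 34.98 CPM to 84.5, 84.5 and 102.5 (log2 difference 1.16, adjusted p = 0.000204, limma). None of their 21 tested events was called by limma, against 3.69% of all, with 3 at an unadjusted p below 0.05, against 12.9%. An authors' FDR below 0.05 was given to 7, against 12.6% of all tested events, 4 in Nsd3 and 3 in Setd5, which are named after their values were seen. A 171-nt exon of Nsd3, for one, was at 0.726 and 0.373 against 1, 0.816 and 0.917 (adjusted p = 0.177, limma, against an authors' FDR of 0.004). The libraries of set A are themselves far apart there. Among 7 H3K36 demethylases 1 was called in coverage, against 22.7% of all genes. Kdm4b fell from 83.4 and 80.3 to 52.6, 53.8 and 54.0 CPM (-0.61, adjusted p = 0.00545, limma). In their events limma called 0 of 6, against 3.69% of all, with 1 at an unadjusted p below 0.05, against 12.9%.

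Of 20 readers with coverage, 2 were called, against 22.7% of all genes, both lower: Zmynd11 and Hdgf, a PWWP protein related to Psip1. Hdgf had 195.4 and 200.8 CPM against 159.9, 163.7 and 145.5 (-0.34, adjusted p = 0.0291, limma). The Hdgf call was lost without A2 (0.0623), B1 (0.0596) or B3 (0.0972). None of 30 reader events was called by limma, with 4 at an unadjusted p below 0.05, against 12.9% of all. The authors' FDR marked 5, against 12.6% of all tested events, 4 in Brpf3 and 1 in Hdgf. With dCas9-SET2 the authors called 3 of 18 events on the list of readers, against 4.96% of all events with an adjusted p. They were those of Zmynd11, Zmynd8 and Morf4l2 above, the last a relative of the reader Morf4l1. Among the partners of the mark in transcription and splicing, limma called 1 of 14 events, against 3.69% of all. The authors' FDR marked 2, against 12.6%, the event called by limma and a 151-nt exon of Supt6. The 12-nt exon of Supt5, an elongation factor, was at 0.801 and 0.766 in set A and lower in set B, at 0.525, 0.538 and 0.605 (limma, adjusted p = 2.8e-05). That call was lost with the exon's own spread (0.434) and without weights (0.426). Hdac2, a histone deacetylase, fell from 204.3 and 184.0 to 144.1, 154.0 and 137.0 CPM (-0.42, adjusted p = 0.0122, limma). It was the 1 of 13 called, against 22.7% of all genes, and its adjusted p was 0.0616 without A1.

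Of the H3K9 methyltransferase complex of Ehmt2, limma called 0 of 16 HSV events and 0 of 7 genes in coverage, against 3.69% and 22.7% of all. At an unadjusted p below 0.05 stood 3 of the events, against 12.9% of all, and 2 of the genes, against 2805 of 8201. The authors' FDR marked 2 of the 16, against 12.6% of all tested events, a 563-nt exon of Zfp644 and a 329-nt exon of Setdb2. In both exons the libraries of set A stood far apart (0.771 and 0.257, and 0.887 and 0.563) and all of set B at 1. In the SWI/SNF complex around Smarca4, limma called 2 of 28 events, both higher, against 3.69% of all, and 6 of 20 genes in coverage, all lower, against 9.49% of all. The authors' FDR marked 3 of the events, against 12.6% of all tested events, the third in Arid1a. No test set these counts against those of other genes. The second event was a 93-nt exon of Smarcc2, a core subunit, at 0.681 and 0.673 in set A and higher in set B, at 0.81, 0.759 and 0.757 (adjusted p = 0.0247, limma). It lost its call without A1 (0.156), A2 (0.145) or B1 (0.219), with the exon's own spread (0.539) and without weights (0.684). In coverage, Smarcd1 fell by 0.81 on the log2 scale, Phf10 by 0.86, Dpf1 and Actl6b, both subunits of the neuronal form of the complex, by 0.84 and 0.61, and Brd7 by 0.53. Smarcd1 had 358.4 and 321.0 CPM against 201.1, 194.4 and 183.3 (adjusted p = 5.4e-05). With dCas9-SET2 the authors called 2 of 24 events of this complex, against 4.96% of all events with an adjusted p. They were a 54-nt exon of Smarca2 read by 17 and 16 reads and a 222-nt exon of Ss18 at 0.831 and 0.887 (dPSI 0.0815, authors' adjusted p = 0.0489).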

How the data were processed

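RNA of mouse nucleus accumbens was measured, and 2 tables of exon skipping were used. The submitters' processing notes name STAR 2.4.1d, Bowtie2 and the builds mm9 and mm10 with no role, and name no event caller. Read counts were deposited by the authors joined by commas within a cell, without library names (37 unnamed columns). The p-value, FDR and adjusted p-value per event, and the difference scores (inclusion difference and dPSI), are the authors' deposited values.

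The members and gene lists were chosen with earlier results of these data known. All members are named, with library values for events called, deepest or between 0.1 and 0.9, and genes of wider lists where called in a fit. PSI was recomputed as reads over form length (exon plus 150 against 150, or exon plus 99 against 99). For the HSV table, limma 3.58.1 in R 4.3.3 tested inclusion on the logit scale (count added 0.5, weighted by reads, a single spread shared by all events, so that p-values of deep events can be too small). Coverage was tested as log2 CPM with 0.5 added (TMM trims 0.3 and 0.05), in genes with a mean of 20 reads per library, so differences of low genes are understated. Tests were two-sided, with Benjamini-Hochberg adjustment over all features and a threshold of 0.05. Scripts were tested on simulated data. In the dCas9-SET2 table the authors' values were copied.

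Coordinates are 1-based as each table gives them. Those of the HSV table do not match GRCm38 and were not converted. Gene spans are from a RefSeq table of GRCm38, which holds no exons, so whether an exon is coding was not determined. Genes overlap in that table for Ash1l (Dap3, Gm24403, Gm26465), Zmynd11 (Gm36423), Zmynd8 (1810021M19Rik, Gm11465), Morf4l2 (BC065397), Dnmt3a (Dnmt3aos, Gm31623) and Psip1 (Snapc3), and strand handling is not stated in the sources. No exon sequence was used here.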

Additional observations from a re-analysis of the deposited data

How the results depend on the processing

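No paired analysis was possible because the columns carry no replicate numbers, in the HSV table. The count of called HSV events of the 10 genes, 1, became 0 with each event's own spread, 0 without weights and 0 with no filter, and ranged from 0 to 1 when single libraries were left out. In those fits limma called 1, 0 and 221 of all tested events, with 619, 790 and 3049 at an unadjusted p below 0.05. It stayed 1 with a spread trended on depth, a stricter filter or 1 added to each count. The count of genes with changed coverage, 2, became 1 with library totals and 1 with no filter, and ranged from 1 to 3 without single libraries. It was 3 with reads summed over exons. In the dCas9-SET2 table the count of 4 became 0 when the authors' test was replaced by limma over summed runs, 0 with the repeated run left out and 0 with it kept, with 1 of 10 at an unadjusted p below 0.05 in each. With the position group as a replicate block it was 0, with 3 of 10 at an unadjusted p below 0.05 (Zmynd8 12 nt 0.0430, Morf4l2 77 nt 0.0315, Ehmt2 102 nt 0.0498) and 4 instead of 1 calls over all events. Between same-numbered groups of the sets, r of the deviations in inclusion was 0.07, -0.03, 0.07 and 0.05 for groups 1, 2, 3 and 4 over 2298 events. The highest r with a group of another number was -0.002, 0.04, 0.02 and 0.11. All these values are small, with groups 1 and 3 above that highest r and groups 2 and 4 below. In coverage r was 0.24, -0.12, 0.10 and -0.01 for groups 1, 2, 3 and 4. The highest r with a group of another number was 0.05, 0.13, 0.07 and 0.20, so groups 1 and 3 stood above it and groups 2 and 4 below. The labels give both guides the same sample numbers, but the positions carry none. The position numbers are thus not shown to pair the runs. Directions turned, when a library was left out, for 6 exons that were never called. Their logit differences ranged from -0.37 to 0.015 for the 116-nt exon of Ehmt2, -2.24 to 0.094 for Psip1, -0.32 to 2.05 for the 52-nt exon of Setd2, -0.089 to 0.20 for the 162-nt and -0.74 to 0.27 for the 45-nt exon of Zmynd11, and -0.28 to 0.10 for the 12-nt exon of Zmynd8. Coverage of Ash1l turned to -0.061 with reads summed over exons. The cause was not tested. With 2 and 3 libraries and few reads of the rarer form, an exon not called is not shown to be unchanged.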

Other observations

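Reads over the events of the 10 genes were lower in set B of the HSV table beyond those of the deepest event. Scaled reads were lower in 42 of the 51 events, against 49.4% of all listed events, and in 28 of them without overlap between the sets, against 21.7%. They were higher without overlap in 2 events, against 23.4%. The events of a gene share reads, and 9 of the 51 are of Zmynd11 and 9 of Ash1l. All 5 events of Ehmt2 (-0.27 to -0.16 on the log2 scale) and all 4 of Psip1 (-0.63 to -0.10) were lower. Setd2 was mixed, with 3 of 6 lower (-0.17 to 0.32), and both events of Morf4l2 were higher (0.08 and 0.16). In Zmynd8, 7 of 8 events were lower, 4 of them without overlap, although its deepest event was not called. The other, its 144-nt exon, was higher without overlap (0.22).

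In the dCas9-SET2 table, the share of reads held by the deepest event of each of the 7 genes varied between runs, and the ranges of the sets overlapped in each gene. Zmynd11 had 407.5 CPM in the first set and 333.6 in the second, as given above. Morf4l2 had 569.5 CPM of all listed reads in the first set and 644.0 in the second, Ehmt2 404.6 and 386.2, Zmynd8 353.5 and 360.9, Smarca4 166.3 and 150.8, Setd2 74.2 and 87.5, and Nsd1 61.2 and 54.5. No test was made of these values.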
